A study of Mus musculus with 16 samples.

Results

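Transcripts of 9 genes for linker and replacement histone variants were followed in 2-cell mouse embryos. The genes were H1foo, H1f0, H1fx, H2afx, H2afj, H2afy, H2afy2, H3f3a and H3f3b, chosen by their older GENCODE symbols, and all 9 were found among the 49585 gene identifiers of the deposited tables. A total of 16 libraries fall into 3 groups: 4 of non-injected embryos, 6 of embryos whose zygotes received double-stranded LacZ RNA (the LacZ control, a bacterial sequence without a mouse target) and 6 that received double-stranded Suv39h2 RNA (the knockdown). In all groups the fathers were DBA and the mothers F1 hybrids (C57BL/6J × CBA/H), and embryos were kept in KSOM medium. Parental age is not given. The design text gives pools of 5 embryos, whereas the extraction label speaks of 1 embryo, and the treatment label names Suv39h1 messenger RNA, which the group labels do not mention. Messenger RNA was lowered by injection into the zygote, so protein already stored in the egg was not addressed, and no protein was measured. The comparisons ask what changes when embryos contain less Suv39h2 messenger RNA, with the LacZ control for injection itself.

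Nucleosomes wrap DNA around core histones, and linker histones of the H1 family bind where DNA enters and leaves. Most histones are made during S phase from clustered genes whose messages lack a poly(A) tail. Many replacement variants instead come from single genes with polyadenylated messages and can be deposited outside replication. Only polyadenylated RNA was sequenced here, so the levels below do not measure messages without a tail, for H2afx as for the other genes. In the early mouse embryo the oocyte linker histone H1FOO gives way to somatic H1 proteins, and H3.3 is loaded onto the paternal genome after fertilization. Variants of the macroH2A type carry a large additional domain and are associated with silent chromatin, while H2AX is phosphorylated at DNA breaks.

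H3f3a and H3f3b encode the same protein, H3.3, from different messages. Of 137 codons, stop included, 83 differed between them in the GENCODE coding sequences, and 0 of these changed the residue. The 411 coding bases differed at 95 positions (76.9% identity), 81 of them the third base of a codon, and the longest identical run was 23 bases. The first 120 coding bases of each are shown because such differences let a coding read be assigned to 1 of the 2 genes. The coding part is 411 bases, of 3504 merged exon bases in H3f3a and 2976 in H3f3b. Capitals mark the 24 positions at which they differ.
H3f3a: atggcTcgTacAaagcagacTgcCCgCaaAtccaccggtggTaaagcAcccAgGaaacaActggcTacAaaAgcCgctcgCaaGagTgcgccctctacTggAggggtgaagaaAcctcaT
H3f3b: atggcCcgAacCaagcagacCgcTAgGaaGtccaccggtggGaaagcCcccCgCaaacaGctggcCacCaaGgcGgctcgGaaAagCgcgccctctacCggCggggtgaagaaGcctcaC

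H2afx and H2afj both encode H2A proteins with serine followed by glutamine near the end. In H2AX the serine of the last such pair is the one phosphorylated at DNA breaks. The last 60 coding bases, stop codon included, are shown because these 2 genes had similar levels, while the knockdown values of H2afx were positive and those of H2afj negative. Capitals mark the codons of the last serine-glutamine pair, with 2 residues after it in H2AX and 5 in H2A.J. H2afx holds a further such pair just before it, left in lower case.
H2afx: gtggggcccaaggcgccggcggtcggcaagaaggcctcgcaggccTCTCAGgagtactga
H2afj: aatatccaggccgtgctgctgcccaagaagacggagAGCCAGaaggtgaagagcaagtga

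H1foo was the 1 gene of the 9 that passed the test in any comparison, so the 250 bases before its RefSeq start are shown (chr6:115944681-115944930, plus strand, GRCm38.p6). Capitals mark matches, on either strand, to CCAAT and to the E-box CANNTG.
H1foo: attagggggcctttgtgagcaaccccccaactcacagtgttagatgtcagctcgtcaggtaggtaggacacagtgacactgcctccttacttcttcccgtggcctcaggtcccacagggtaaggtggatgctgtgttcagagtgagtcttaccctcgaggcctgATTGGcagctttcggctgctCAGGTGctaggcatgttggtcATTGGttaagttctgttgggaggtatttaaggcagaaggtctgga
This window holds 2 CCAAT matches and 1 E-box. Of 32851 RefSeq windows of the same length, 33.8% held CCAAT at least once and 10.1% at least 2 times, and 66.2% held CANNTG. The TATA-box core TATAAA, searched on both strands like the homeobox core TAATTG, had 0 matches, and neither this homeobox core nor its variant TAATTA occurred in the window. A match describes the letters and no binding was measured.

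Messages of H3f3b and of the oocyte linker histone gene H1foo were the most abundant of the 9 per length, and those for macroH2A and H1fx the least. Levels are mean normalized counts over all 16 libraries, the baseMean of the authors' deposited table, and are also given per kilobase of merged exons so that genes can be set side by side. H3f3b had a mean count of 25472 in the authors' deposited table, more than 99.97% of the 33028 genes with a count above 0, and 8559 per kilobase. H3f3a had 1565 (447 per kilobase), so H3f3b exceeded it 19.2-fold per kilobase although both make the same protein. H1foo, the linker histone of oocytes, had 2709 in the authors' deposited table (2256 per kilobase), and H1f0, the replacement H1 of resting cells, had 1733 (843 per kilobase). Among linker histones, H1fx stood far below, at 10.4 (8.52 per kilobase), which is 98.9-fold less per kilobase than H1f0. H2afx, the damage-responsive H2A, had 415 in the authors' deposited table (300.2 per kilobase), and H2afj, an H2A close to the replication-dependent form, had 436 (238 per kilobase). Of the macroH2A genes, H2afy had 19.6 (2.87 per kilobase) and H2afy2 had 3.13 (1.44 per kilobase) in the authors' deposited table. Neighbours in this order cannot be tested against each other, since the tables hold no spread over libraries. They also hold no level for a group, so differences between groups appear below as fold changes.

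**Figure D1:**
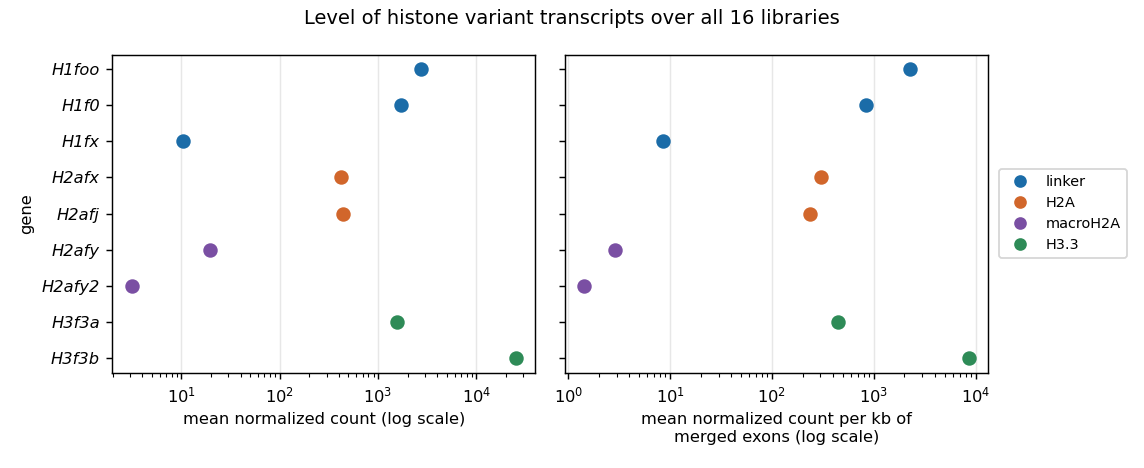
Mean normalized count over all 16 libraries of each of the 9 histone variant genes (left) and the same per kilobase of merged exons (right), both on log axes, with 1 point per gene coloured by class. H3f3b lies highest, at 8559 per kilobase, and the macroH2A genes H2afy and H2afy2 lowest, at 2.87 and 1.44.

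The labels were checked first. Suv39h2 fell by 1.95 ± 0.28 (log2, SE) between LacZ control and knockdown in the authors' deposited table (DESeq2 adjusted p = 4.72e-08). The RNA held both 2-cell and oocyte transcripts. All 21 genes found of a list of 23 2-cell transcripts had a mean count of at least 10, led by Zfp352 at 2987. Of 24 oocyte transcripts 23 did, led by Dppa3 at 26588. Summed mean counts were 13021 for the 2-cell list and 77254 for the oocyte list. Of 13 cumulus and granulosa cell markers 4 reached a mean count of 10, with Inhba at 0 and Amhr2 at 407 making up most of their summed mean count of 483. Of 8 sperm markers 0 did, with Smcp at 0 and a summed mean count of 14.3. In knockdown over non-injected, none of the 5 cumulus and granulosa markers that DESeq2 adjusted was called, where 15.2% of all genes were. At an unadjusted DESeq2 p under 0.05, 2 were higher and 1 lower, where 14.6% and 14.4% of all genes were. The part of these markers in the histone results was not tested.

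Knockdown and LacZ control, both injected, differed in 0 of the 8 histone variant genes with an adjusted p in the authors' deposited table, tested with DESeq2 at an adjusted p under 0.05. Over all genes 0.899% were called. At an unadjusted DESeq2 p under 0.05, 2 of the 8 were lower, H2afj and H3f3b, where 8.07% of all genes were, and 0 were higher, where 6.6% of all genes were. Both linker histones of the embryo, H1foo and H1f0, lay close to 0. In bulk RNA from pools, fewer cells and less RNA per cell cannot be told apart.

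In the linker class, H1foo stood at a log2 fold change of 0.14 ± 0.25 (SE) in the authors' deposited table, with a 95% interval of -0.35 to 0.64 for the difference (DESeq2 adjusted p = 0.836). H1f0 stood at 0.16 ± 0.24 in the authors' deposited table (interval -0.30 to 0.63, DESeq2 adjusted p = 0.753). These intervals allow 0.782 to 1.56 times the LacZ control level for H1foo and 0.810 to 1.55 times for H1f0. H1fx, with its low count, had a wider interval, -0.97 to 0.59.

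The H2A variants pointed in opposite directions without passing the test. H2afj was at -0.64 ± 0.27 in the authors' deposited table, 0.642 of the level in the LacZ control (interval 0.445 to 0.928, unadjusted p = 0.0205, DESeq2 adjusted p = 0.235). H2afx was at 0.44 ± 0.30 in the authors' deposited table (DESeq2 adjusted p = 0.519). Of the macroH2A genes, H2afy stood at 0.38 ± 0.39 in the authors' deposited table (DESeq2 adjusted p = 0.784). H2afy2, at 0.13 ± 0.32 in the authors' deposited table, had no adjusted p in this comparison because of its low count.

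The genes for H3.3 differed in their values. H3f3b, the main source of H3.3 message here, was at -0.60 ± 0.26 in the authors' deposited table, 0.659 of the LacZ control level (interval 0.460 to 0.943, unadjusted p = 0.0300, DESeq2 adjusted p = 0.272). H3f3a was at -0.03 ± 0.15 in the authors' deposited table (interval -0.33 to 0.26, DESeq2 adjusted p = 0.941), the narrowest interval of the 9. Whether the values for H3f3a and H3f3b differ from each other was not tested, because the tables hold no values of single libraries, and the intervals overlap.

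Against non-injected embryos, H1foo was higher in the knockdown. The other 7 genes with an adjusted p did not pass the test, although H2afy and H1f0 came near it. Called higher was thus 1 of 8, where 7.41% of all genes were called higher and 15.2% in either direction. At an unadjusted DESeq2 p under 0.05, 4 of the 8 were higher (H1foo, H1f0, H2afx and H2afy, where 14.6% of all genes were) and 1 lower (H2afj, where 14.4% were). Fold changes were also centred on the median of genes with a mean count of at least 100. With p-values recomputed from the centred fold change over its standard error, 3 were called, H1f0 and H2afy besides H1foo. With the deposited values at an adjusted p under 0.01, the count was 0.

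H1foo rose by a log2 fold change of 0.89 ± 0.27 in the authors' deposited table, to 1.85 times the non-injected level (95% interval 1.29 to 2.66, DESeq2 adjusted p = 0.0105). H1f0 was at 0.60 ± 0.25 in the authors' deposited table, 1.51 times that level (interval 1.08 to 2.13, DESeq2 adjusted p = 0.0749). H1fx had the opposite sign, -0.53 ± 0.40 in the authors' deposited table, with an interval that spans 0 (DESeq2 adjusted p = 0.464).

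Of the macroH2A genes, H2afy had the highest fold change of the 9, 1.08 ± 0.40 in the authors' deposited table, at a mean count of 19.6 and an adjusted p of 0.0533 (DESeq2). H2afy2 was at 0.45 ± 0.31 in the authors' deposited table with no adjusted p (unadjusted DESeq2 p = 0.0143). That p belongs to the deposited Wald score of 2.45, whereas the interval from the deposited fold change, -0.15 to 1.06, spans 0. H2afx was at 0.64 ± 0.32 in the authors' deposited table (DESeq2 adjusted p = 0.162). H2afj was at -0.65 ± 0.28 in the authors' deposited table (DESeq2 adjusted p = 0.106), nearly the value it had against the LacZ control, a comparison that shares the knockdown libraries.

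For H3.3, neither gene was called. H3f3b was at -0.11 ± 0.28 in the authors' deposited table (interval -0.65 to 0.43, DESeq2 adjusted p = 0.880) and H3f3a at -0.18 ± 0.16 (interval -0.49 to 0.13, DESeq2 adjusted p = 0.481). These intervals still allow H3f3b to lie between 0.637 and 1.35 times, and H3f3a between 0.713 and 1.10 times, the non-injected level.

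**Figure D2:**
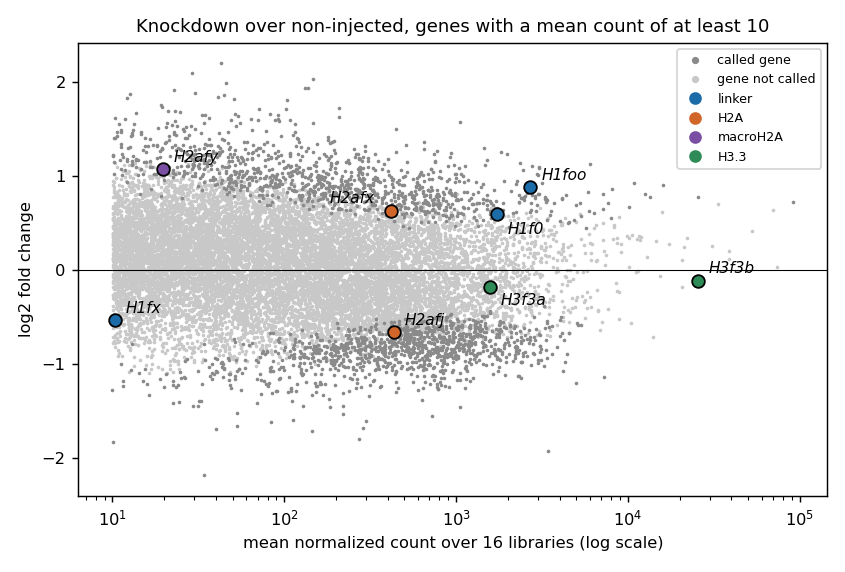
Log2 fold change of knockdown over non-injected embryos against the mean normalized count (log axis) for genes with a mean count of at least 10, in light grey (not called) or dark grey (called at an adjusted p under 0.05), with the 8 histone variant genes at that level coloured by class. H1foo lies among called genes at 0.89, H3f3a and H3f3b lie near 0, and H2afy2 is below the count limit of the plot.

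LacZ control and non-injected embryos differed in 0 of the 9 genes by the DESeq2 test of the authors' deposited table, where 0.792% of all genes were called. At an unadjusted DESeq2 p under 0.05, 1 of 9 was higher, H1foo, where 4.43% of all genes were, and 0 were lower, where 2.96% were. H1foo thus had a positive value in both comparisons with non-injected embryos.

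H1foo was at 0.75 ± 0.27 in the authors' deposited table, 1.68 times the non-injected level (interval 1.16 to 2.42, unadjusted p = 0.00526, DESeq2 adjusted p = 0.262). The values of H1foo against non-injected embryos, 0.89 for the knockdown and 0.75 for the LacZ control in the authors' deposited table, share the 4 non-injected libraries, and their difference is the value between the injected groups, 0.14. H1f0 was at 0.43 ± 0.26 (DESeq2 adjusted p = 0.812) and H2afy at 0.70 ± 0.40 (DESeq2 adjusted p = 0.689) in the authors' deposited table. H3f3b was at 0.49 ± 0.28 in the authors' deposited table (interval -0.06 to 1.04, DESeq2 adjusted p = 0.786), opposite in sign to its value between knockdown and LacZ control. Both of these H3f3b values contain the 6 LacZ libraries, on opposite sides of the ratio. The other 5 genes ranged from -0.34 (H1fx) to 0.32 (H2afy2), with H2afj at -0.02, H3f3a at -0.14 and H2afx at 0.19 in the authors' deposited table.

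**Figure D3:**
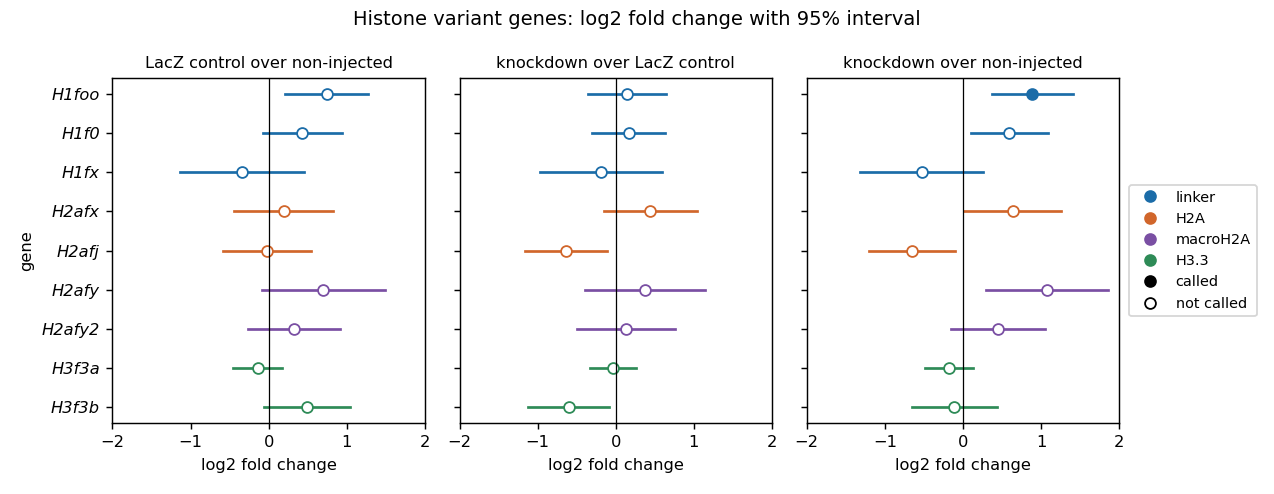
Log2 fold change (point) with its 95% interval (line) for the 9 histone variant genes in each of the 3 comparisons, coloured by class, with filled points for an adjusted p under 0.05. The 1 filled point is H1foo in knockdown over non-injected, and the intervals of H2afj and H3f3b lie below 0 between knockdown and LacZ control without an adjusted p under 0.05.

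The position of each gene and what shares its sequence bear on these counts, which came from a protocol that does not record strand. All 9 are annotated as protein-coding on GRCm38. H1foo (chromosome 6, 115944938 to 115950236, plus strand, 6 merged exons) shares no exon base with another gene and 0 of its 1331 transcript windows of 50 bases with any other GENCODE transcript, so its reads can be placed. H1f0 (chromosome 15, 79028450 to 79030504, plus) is a single-exon gene that shares 163 exon bases with the antisense Gm49544.

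H1fx (chromosome 6, 87980421 to 87981637, minus) shares 17.5% of its exon bases with the antisense Gm5577, whose own mean count is 1101 in the authors' deposited table, against 10.4 for H1fx. Reads of the shared stretch cannot be assigned without strand, and the value of H1fx is uncertain for that reason. H2afx (chromosome 9, 44334694 to 44336077, plus) and H2afj (chromosome 6, 136808244 to 136810074, plus) each share 141 exon bases with an annotated small RNA on the other strand. Mean counts of these small RNAs were 94.3 for Gm44335 over H2afx and 239 for Gm44364 over H2afj in the authors' deposited table. Reads of these stretches likewise cannot be assigned without strand, so both levels are uncertain. Of their 50-base windows 129 of 1335 in H2afx and 128 of 1828 in H2afj occur in other genes. In each gene, 92 of these windows lie in that small RNA. Clustered H2A genes share more with H2afx: Hist1h2ac, for example, holds 82 of the H2afx windows and 5 of the H2afj windows. H2afy (chromosome 13, 56073619 to 56136361, minus) shares 501 exon bases with Gm47071, and H2afy2 (chromosome 10, 61738665 to 61784147, minus) 233 with Aifm2, both on the opposite strand.

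H3f3a (chromosome 1, 180800832 to 180813943, minus) is the member with the most shared sequence. Of its 50-base windows, 986 (27.1%) occur in 193 other genes, 39 of them pseudogenes. Gm17275, which had a mean count of 873 in the authors' deposited table, overlaps 638 exon bases of H3f3a on the other strand. It holds 595 of these 986 windows. That part is an overlap at the same place and not a copy elsewhere. The processed pseudogene H3f3c holds 245. H3f3b (chromosome 11, 116021912 to 116027962, minus) shares 6.86% of its windows. The named copies H3f3a-ps1 and H3f3a-ps2 had mean counts of 4.86 and 1.90 in the authors' deposited table. Reads that fit several places may be left out of the count, and reads of the stretch shared with Gm17275 cannot be assigned without strand. The level of H3f3a may therefore be too low, and the 19.2-fold excess of H3f3b per kilobase too large, by an amount that was not tested.

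Genes that work with these histones were read from lists alongside, described by counts and medians only. Over all 14830 genes with a mean count of at least 10, the median log2 fold change was 0.01 between knockdown and LacZ control, 0.05 between knockdown and non-injected embryos and 0.02 between LacZ control and non-injected embryos. Called genes of every list except maternal and 2-cell transcripts and H2AX signalling lay in knockdown over non-injected alone.

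Among 9 chaperones of H3.3, the proteins that carry and load it, 0 were called between knockdown and LacZ control. At an unadjusted DESeq2 p under 0.05, 1 was lower there, where 8.07% of all genes were. Against non-injected embryos 1 was called lower in the authors' deposited table (11.1% of the list, where 15.2% of all genes were called). This was Hira, the core of the complex that loads H3.3 at genes and onto the paternal genome, at -0.86 ± 0.25 (DESeq2 adjusted p = 0.00820, authors' deposited table). The list's medians were -0.17 and -0.07 in these comparisons. The other subunits and partners of HIRA on the list were not called in knockdown over non-injected, with Ubn1 at -0.39, Ubn2 at -0.32, Cabin1 at -0.07 and Asf1a at 0.16 in the authors' deposited table, and 3 of the 9 listed genes had a positive value.

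Of 8 chaperones that serve H3 and H4 at replication, 1 fell in knockdown over non-injected, a share of 12.5% where 15.2% of all genes were called. This was Cdan1, which holds back the chaperone ASF1, at -0.91 ± 0.24 in the authors' deposited table (DESeq2 adjusted p = 0.00402). Between knockdown and LacZ control 0 of the 8 were called by DESeq2, and 2 were lower by unadjusted p under 0.05, where 8.07% of all genes were.

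Of 12 chaperones of linker histones and of H2A with H2B, 2 rose and 3 fell in knockdown over non-injected, where 15.2% of all genes were called, with a median of -0.38. Npm2, the egg nucleoplasmin that handles sperm chromatin, rose by 0.97 ± 0.23 and Npm3 by 0.95 ± 0.23 in the authors' deposited table (DESeq2 adjusted p = 0.00114 and 0.00160). Ncl, nucleolin, fell by 0.69 ± 0.19 in the authors' deposited table (DESeq2 adjusted p = 0.00539). Between knockdown and LacZ control, 0 of the 12 were called by DESeq2, and at an unadjusted p under 0.05 the count was 4 lower, where 8.07% of all genes were, and 0 higher.

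Among 13 genes of H2AX phosphorylation and signalling, 2 fell and 0 rose in knockdown over non-injected, a share of 15.4% that lies at the 15.2% over all genes. Prkdc, a kinase of H2AX at DNA breaks, was at -0.96 ± 0.22 and Ppm1d, a phosphatase of H2AX, at -1.20 ± 0.32 in the authors' deposited table (DESeq2 adjusted p = 0.000668 and 0.00415). Prkdc was also lower in the LacZ control than in non-injected embryos, at -0.79 ± 0.22 in the authors' deposited table (DESeq2 adjusted p = 0.0452). Between knockdown and LacZ control 0 were called by DESeq2, and the unadjusted p was under 0.05 for 1 higher and 3 lower genes (6.6% and 8.07% of all genes).

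Of 5 other variants with a mean count of at least 10, 0 were called between knockdown and LacZ control by DESeq2, and 3 were lower and 0 higher by unadjusted p under 0.05, where 8.07% and 6.6% of all genes were. H2afz and H2afv, the H2A.Z genes, were at -0.47 ± 0.21 and -0.57 ± 0.21 in the authors' deposited table (DESeq2 adjusted p = 0.251 and 0.168). Cenpa, the centromeric H3, was at -0.37 ± 0.15 in that comparison and fell by 0.50 ± 0.16 in knockdown over non-injected, in the authors' deposited table (DESeq2 adjusted p = 0.188 and 0.0188). Hist3h2ba, an H2B of the same list, rose by 1.54 ± 0.36 in knockdown over non-injected in the authors' deposited table (DESeq2 adjusted p = 0.00116). Thus 1 of the 5 rose and 1 fell in that comparison, where 15.2% of all genes were called. The list held 13 genes.

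H1foo is itself a maternal transcript. Of 24 other maternal oocyte transcripts, 23 had an adjusted p in knockdown over non-injected, and 11 of these were called higher (7.41% of all genes) and 0 lower, with a median of 0.71. The smallest adjusted p values belonged to Kpna7, an oocyte importin, with 1.15 ± 0.20, Nobox, a transcription factor of oocytes, with 1.27 ± 0.28, and Zp2, a zona pellucida protein, with 0.85 ± 0.19 in the authors' deposited table (9.40e-06, 0.000396 and 0.000840 by DESeq2). Against the LacZ control, 0 were called by DESeq2, where 0.899% of all genes were, with a median of 0.24. The unadjusted DESeq2 p was under 0.05 for 5 higher and 0 lower (6.6% and 8.07% of all genes). In LacZ control over non-injected, where 0.792% of all genes were called, the 23 maternal genes with a mean count of at least 10 had a median of 0.44 and 22 of them a positive value. At an unadjusted DESeq2 p under 0.05, 8 of 24 were higher and 0 lower, where 4.43% and 2.96% of all genes were. Called was 1 of 24, Kpna7, at 0.73 ± 0.21 in the authors' deposited table (DESeq2 adjusted p = 0.0445). This list was drawn up with earlier results of these data known. The 2-cell transcripts, 21 genes, had 6 called higher (7.41% of all genes) and 0 lower in knockdown over non-injected, with a median of 0.49. Between knockdown and LacZ control 0 were called, where 0.899% of all genes were. There the unadjusted DESeq2 p was under 0.05 for 1 higher and 0 lower (6.6% and 8.07% of all genes). Of the 6 called against non-injected embryos, Tdpoz3, Tdpoz4 and Tcstv1, genes switched on at this stage, had the smallest adjusted p. They were at 1.17, 1.02 and 1.03 in the authors' deposited table (DESeq2 adjusted p = 0.000836, 0.00136 and 0.00201). In LacZ control over non-injected 2 were called higher, Tcstv1 at 1.05 ± 0.26 and Tcstv3 at 0.89 ± 0.25 in the authors' deposited table (DESeq2 adjusted p = 0.00964 and 0.0445), with 18 of 21 positive and a median of 0.41.

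**Figure D4:**
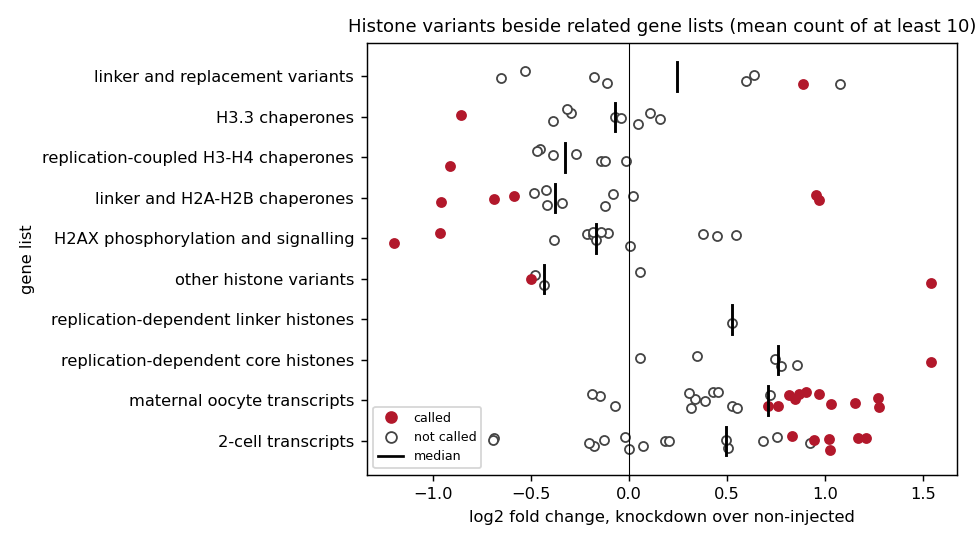
Log2 fold change of knockdown over non-injected embryos for the histone variants (top row) and 9 related gene lists, 1 point per gene with a mean count of at least 10, red where the adjusted p was under 0.05, with a black bar at the list's median. H1foo is the red point of the top row at 0.89, and the maternal oocyte transcripts have a median of 0.71.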

How the data were processed

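Polyadenylated RNA was sequenced with Smart-seq2, per the labels' protocols. Per the submitters' processing notes, the authors used STAR 2.5.2b on GRCm38.p5, SAMtools, HTSeq 0.9.1 for counts and DESeq2 1.18.1. The table names alone record RUVSeq and shrinkage of fold changes. Per the file headers, each of the 3 deposited gene tables holds a mean normalized count, a signal averaged over libraries by the authors. Further deposited columns are the log2 fold change, its standard error, the Wald score, the p-value and the p-value after adjustment. Adjusted p-values start at mean counts of 7.93, 9.66 and 0.140 in the 3 comparisons. No column holds values of single libraries (0 were left unused), so the depth per sample is unknown and no refit was possible. The planned edgeR test, which needs counts, was therefore replaced by the authors' DESeq2 test.

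Identifiers were matched to GENCODE M21 symbols without their version (99.5% matched). Intervals at 95% are the deposited fold change ± the normal quantile times its standard error. The deposited Wald score, which gives the p-value, is not the ratio of these values, so interval and p-value can differ. Shared windows of 50 and 100 bases were searched in the GENCODE M21 transcripts on both strands. Coding sequences are the longest complete ones of GENCODE M21. Promoter windows are from RefSeq on GRCm38.p6, where 8 of the 9 genes matched. Named were all 9 genes, Suv39h2, and in each list the 3 called genes with the smallest adjusted p per comparison. Other genes beside these were chosen after their values were seen. The 9 genes and the lists were chosen with earlier results of these data known. Alternatives changed the genes adjusted over, the threshold, the centring (with recomputed p-values) and the fold change (the Wald statistic times the standard error). The code for the centring was checked on simulated fold changes with a set offset, drawn normally from the deposited standard errors. The deposited values differ from that setting, so this check does not bear on the calls that centring added. Whether libraries are separate cultures is not stated, so p-values measure the spread between libraries. The 3 repeat tables hold no histone gene and were not used. Python 3.11.15, pandas 2.3.3, scipy 1.17.1 and matplotlib 3.10.9 were used.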

Additional observations from a re-analysis of the deposited data

How the results depend on the processing

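No paired analysis was possible because the tables hold no values of single libraries, so the planned replicate block and leaving out single libraries were not run. The count of called histone variants stayed at 0 for knockdown over LacZ control and for LacZ control over non-injected under all 5 alternatives run. In knockdown over non-injected it was 1 (H1foo) as deposited and with p-values adjusted over every gene or over genes with a mean count of at least 10 or 100, with an adjusted p for H1foo of 0.00509 to 0.0211 over these and the centring. At an adjusted p under 0.01 in place of 0.05 the count was 0. Fold changes were centred on the median of genes with a mean count of at least 100 (-0.08 in this comparison). The p-values were then recomputed from the centred fold change over its standard error, in place of the deposited Wald score. With this the count was 3, as H1f0 (0.0442) and H2afy (0.0282) joined H1foo. The effects of the centring and of the changed score were not separated. H1f0 and H2afy each missed the threshold under the other alternatives that covered them, with adjusted p up to 0.151 and 0.108. Of 27 fold changes, 27 moved by less than their standard error with centring and 27 with the Wald statistic times the standard error, and 1, that of H3f3a in knockdown over LacZ control, had another sign when centred. H1fx and H2afy, with few counts, had standard errors of 0.39 to 0.40, which set what can be seen there. H2afy2 had the fewest counts, yet its deposited standard errors were 0.30 to 0.32, like those of H2afx. It had no adjusted p in either comparison with the knockdown.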

Other observations

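Counts of replication-dependent histone genes were near the floor in these libraries of polyadenylated RNA. Their messages mostly lack a poly(A) tail. Clustered copies also share sequence, with 82 of the 50-base H2afx windows in Hist1h2ab and 82 in Hist1h2ac. The part of missing tails and of shared reads in the low counts was not tested. Of 62 genes listed as replication-dependent core histones, 6 had a mean count of at least 10 and 4 were listed at 0. Their summed mean count was 241, against 25472 for H3f3b alone in the authors' deposited table. The 62 were taken by symbol and include pseudogenes, such as Hist3h2bb-ps among those at 0. Hist3h2ba and Hist1h2aa, among the 6, also stand on the list of other variants. The 6 had positive fold changes in all 3 comparisons. Of them 1 was called, Hist3h2ba, in knockdown over non-injected, a share of 16.7% where 15.2% of all genes were called. It is the same call as the one given among the other variants. Of 6 replication-dependent linker genes, 1 reached a mean count of 10, Hist1h1a, at 0.71 ± 0.40 between knockdown and LacZ control in the authors' deposited table (DESeq2 adjusted p = 0.398).

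The genes with the pattern nearest to a histone variant were read as those with the smallest Euclidean distance over 2 fold changes, knockdown over LacZ control and LacZ control over non-injected, among genes with a mean count of at least 100. For H1foo they were Lamtor3, Pramef20 and Osgepl1, at distances of 0.018 to 0.026 on the log2 scale. For H3f3b they were Tmem132c, Gm29761 and Mphosph8 (0.030 to 0.043), and for H2afj they were Polr2i, Mettl23 and Tasp1 (0.0084 to 0.012). With 2 values a gene such nearness is a description.

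The promoter windows of the variants differed in composition. The 250 bases before the start held 4 CpG in H1foo, 9 in H2afj, 14 in H2afy2, 19 in H3f3b, 24 in H1f0, 29 in H2afy, 30 in H1fx and 35 in H3f3a. CCAAT occurred 4 times before H3f3b, which 0.840% of all windows reach, 3 times before H2afj (2.79% of all windows) and 1 time before H3f3a. TATAAA occurred before H3f3b, as in 12.4% of all windows, and in 0 of the other 7 windows.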
